A study of Mus musculus with 71 samples.

Results

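Myelin and oligodendrocyte genes were followed through the cocaine self-administration libraries as a set of 35 genes of known names. They were taken by symbol from the 37681 genes of each of the 6 deposited tables, and each of the 35 was found once in every table. All 35 passed the filter on low values in all 6 tables, so no member was left out of any comparison. The set holds 4 transcription factors, 15 structural proteins of myelin, 4 enzymes of myelin lipids, 4 receptors and surface proteins, and 8 carriers, enzymes and other genes abundant in oligodendrocytes.

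Oligodendrocytes are the glial cells that wrap axons of the central nervous system in myelin, a compact stack of membrane rich in cholesterol and in the lipids galactosylceramide and sulfatide. Olig1, Olig2 and Sox10 drive precursors into this lineage, and mature cells then express Mbp (myelin basic protein), Mobp, Mog, Mag and Cnp at high levels. Myelin content differs widely between brain regions, and fiber tracts that run near a dissected nucleus carry many of these cells.

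The mice were adult wild type animals, C57BL/6 in the labels and C57BL/6J in the methods, that had been trained to respond for food, fitted with a jugular catheter and then allowed to self-administer cocaine or saline, the control. Tissue was taken after 1 day or 28 days of abstinence from micro-punches of the nucleus accumbens (NAc), the ventral tegmental area (VTA) and the prefrontal cortex (PFC), and 71 libraries in 12 groups were analysed. Saline VTA at 28 days was represented by 5 libraries and the other 11 groups by 6. The methods name animals of both sexes, but the sex behind each library was not given in the sources used here, nor was it stated whether a library was 1 animal, so p-values measure the spread between libraries. The sources do not tie libraries to mice, and libraries of different regions may come from the same mice. In whole tissue, fewer oligodendrocytes and less RNA per oligodendrocyte cannot be told apart.

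Libraries held between 20971967 and 49700932 reads on genes, and the 35 genes took between 0.408% and 3.01% of these. The region labels were matched by marker genes in saline mice at 28 days: all 10 midbrain dopamine neuron markers were higher in VTA than in NAc and all 10 striatal medium spiny neuron markers were higher in NAc than in PFC (edgeR, adjusted p under 0.05). 1 library stood apart in the medium spiny neuron markers. Saline library 4 of the PFC at 28 days had a mean level of these markers of 7.93 on the log2 CPM scale, against 4.26 to 4.54 in the other 5 saline libraries. For the 35 genes, the PFC median at 28 days and the region counts are given with and without it. Values of single genes and the marker check above are given only with it. Other markers also spread widely on this scale. Cortical excitatory neuron markers ran from 1.19 to 4.73 among NAc libraries at 1 day. Fibroblast markers ran from 2.52 to 6.91 among saline VTA libraries at 28 days. The part of this spread in the values of the 35 genes was not tested.

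The promoters of 3 members are shown because Opalin and Olig2 were among the members with the smallest p in the VTA at 1 day and Apod had the smallest p in the VTA at 28 days. Each run is 300 bases from RefSeq (GRCm38.p6), 250 before and 50 after a gene start, in the direction of transcription. Opalin lies on the minus strand at chr19:41077064-41077363, Olig2 on the plus strand at chr16:91225300-91225599 and Apod on the minus strand at chr16:31314759-31315058. Capitals mark every match, on either strand, to ACAAAG or ACAATG, cores of the kind that Sox10 and related factors bind, and to CAGCTG, an E-box of the kind that basic helix-loop-helix factors such as Olig2 bind.
Opalin: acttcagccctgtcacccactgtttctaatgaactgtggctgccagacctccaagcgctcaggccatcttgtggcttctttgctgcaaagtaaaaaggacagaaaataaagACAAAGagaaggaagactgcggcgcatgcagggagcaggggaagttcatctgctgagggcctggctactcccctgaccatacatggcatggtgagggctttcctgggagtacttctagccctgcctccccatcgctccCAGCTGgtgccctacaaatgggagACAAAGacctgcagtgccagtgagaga
Olig2: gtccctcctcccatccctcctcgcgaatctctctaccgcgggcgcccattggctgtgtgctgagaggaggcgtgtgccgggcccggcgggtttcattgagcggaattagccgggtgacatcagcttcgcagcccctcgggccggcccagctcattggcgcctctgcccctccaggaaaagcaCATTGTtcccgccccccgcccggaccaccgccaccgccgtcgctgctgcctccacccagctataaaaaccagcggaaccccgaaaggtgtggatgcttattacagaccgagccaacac
Apod: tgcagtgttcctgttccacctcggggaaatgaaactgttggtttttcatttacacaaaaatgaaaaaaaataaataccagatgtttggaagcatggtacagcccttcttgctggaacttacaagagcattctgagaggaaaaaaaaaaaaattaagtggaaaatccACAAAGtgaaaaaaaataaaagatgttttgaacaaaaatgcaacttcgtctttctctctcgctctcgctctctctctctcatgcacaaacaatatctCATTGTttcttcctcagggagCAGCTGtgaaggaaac

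The Opalin window held ACAAAG at 2 places and the E-box once, the Olig2 window held the reverse complement of ACAATG once, and the Apod window held all 3 motifs. Promoters were found for 25 of the 35 members, with 38 windows. ACAAAG or its reverse complement was in 34.2% of these windows and in 18.7% of all 32851 promoters. ACAATG was in 21.1% of the windows against 12.6% of all promoters, and CAGCTG in 18.4% against 16.3%. These are matches of letters in a short window and are given as a description. In the mm9 build used for the counts, the protein-coding genes of these 3 lie at chr19:41136964-41151603 (Opalin), chr16:91225795-91228922 (Olig2) and chr16:31296278-31314894 (Apod), and Olig1 lies beside Olig2 at chr16:91270014-91272184 on the plus strand.

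The level of the set differed most between regions. In saline mice at 28 days all 35 genes were higher in VTA than in NAc and all 35 were higher in VTA than in PFC (edgeR quasi-likelihood test over the 3 regions in 1 fit, Benjamini-Hochberg adjusted p under 0.05). Of all 17181 genes tested, 32.6% were higher in VTA than in NAc and 29.8% were higher in VTA than in PFC by the same rule. The fit took the libraries of different regions as independent, and with the replicate number as a block the counts were again 35 and 35. The median log2 difference of the 35 genes was 1.40 for VTA over NAc and 1.32 for VTA over PFC, while the medians of all genes were 0.03 and 0.02. The NAc and PFC were much closer to each other, with a median difference of -0.06 across the 35 genes.

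Apod, which encodes the lipid carrier apolipoprotein D, had the largest difference. Its levels in the 5 VTA libraries ran from 499 to 962 CPM (median 764, read counts scaled to library size with TMM factors over the 3 regions), against 124 to 167 CPM in the NAc (median 138) and 104 to 242 CPM in the PFC (median 137). The 5 VTA libraries were above all NAc and PFC libraries, and the log2 difference was 2.39 (SE 0.20) from NAc and 2.34 (SE 0.20) from PFC. Trf, the iron carrier transferrin, differed by 2.21 from NAc and 2.06 from PFC, and Hapln2, a link protein at nodes of Ranvier, by 2.20 and 2.09. The exons of Trf overlap those of a second annotated gene of the same name on the same strand, so its counts are uncertain. Evi2a likewise shares 412 of its 2297 exonic bases with Evi2b on the same strand. Nkx6-2, Cnp, Tspan2, Ermn and Bcas1 overlap a gene on the opposite strand over a small part of their exons, and reads there cannot be assigned without the strand setting.

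The smallest differences between VTA and NAc were those of Opalin and Olig2. Opalin, a membrane protein of mature oligodendrocytes, had a median of 48.6 CPM in the VTA, 29.9 in the NAc and 29.1 in the PFC, and was higher in VTA than in NAc by 0.77 (SE 0.18) on the log2 scale. Olig2 was higher by 0.86 (SE 0.14), with medians of 40.4 CPM in the VTA, 24.3 in the NAc and 22.8 in the PFC. By role, the median log2 difference of VTA over NAc was 1.07 for the transcription factors, 1.61 for the structural proteins and 1.61 for the lipid enzymes. The difference between roles was not tested.

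Between NAc and PFC, 2 of the 35 genes were called, both lower in NAc, where 20.7% of all genes were lower and 20% were higher. Cdk18, a cyclin-dependent kinase of the PCTAIRE group, ranged from 16.2 to 40.0 CPM in the NAc (median 21.4) and from 34.1 to 65.2 CPM in the PFC (median 52.4), a log2 difference of -1.11 (SE 0.19, edgeR adjusted p = 0.00015). Cryab, a small heat shock protein, differed by -0.31 (SE 0.11, edgeR adjusted p = 0.039). Cryab was close to the threshold: 1 of the 35 was called without saline PFC library 4. The same held without saline PFC library 1, 3 or 6, or without saline NAc library 1, 2, 3, 4 or 5. In the VTA, Cdk18 was higher than in the NAc by 1.97 and higher than in the PFC by 0.85 on the log2 scale. In cocaine mice at 28 days the same 35 genes were higher in VTA in both contrasts, with medians of 1.17 over NAc and 1.20 over PFC. Of all 16948 genes tested in cocaine mice, 11605 differed between VTA and NAc and 10999 between VTA and PFC, in either direction. The number between NAc and PFC was 9050 (all edgeR, adjusted p under 0.05). Between NAc and PFC the cocaine mice gave a median of 0.06 with 14 of the 35 below 0, against 28 of 35 in saline mice, and 2 called genes, Cdk18 lower in NAc at -1.11 and Nkx6-2 higher in NAc at 0.39 (edgeR adjusted p = 0.0493). In saline mice without PFC library 6 the NAc to PFC median was likewise 0.06, with 11 of the 35 below 0.

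**Figure D1:**
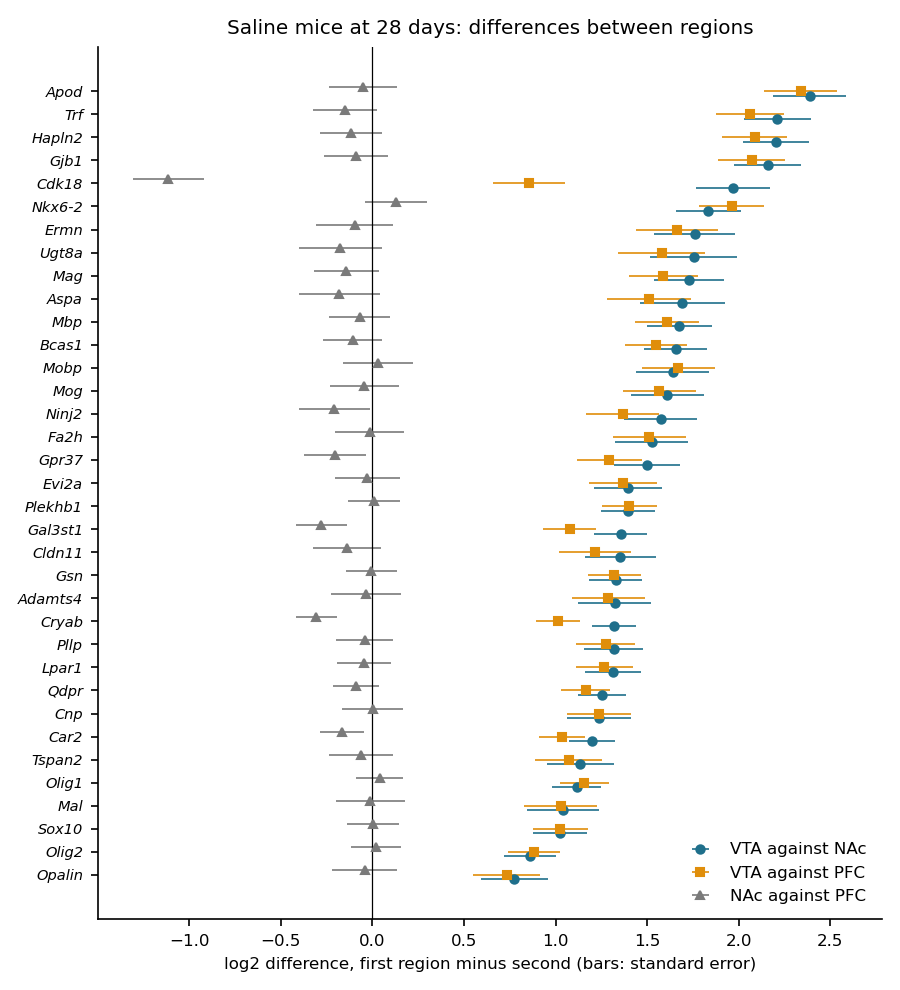
Log2 difference of each of the 35 genes between regions in saline mice at 28 days, ordered by VTA over NAc, with standard errors from edgeR (6 NAc, 5 VTA and 6 PFC libraries). All circles and squares lie to the right of 0, from 0.73 for Opalin to 2.39 for Apod, and the triangles of NAc against PFC lie near 0 except Cdk18 at -1.11.

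Per length, Mbp was the most abundant of the 35 in saline mice of every table, and Mobp, which encodes another structural protein of compact myelin, was next. In the VTA at 1 day Mbp stood at 1337 ± 297 RPKM (reads scaled to gene length and library size, SD, n = 6) and Mobp at 941 ± 255, and in the PFC at 1 day at 434 ± 124 and 322 ± 109. The lowest of the set at 1 day was Nkx6-2, a homeobox transcription factor, with 3.89 ± 0.723 RPKM in the VTA and 0.889 ± 0.408 in the PFC. At 28 days Ninj2 was the lowest in each region, and Nkx6-2 stood at 25.4 CPM per kilobase in the VTA and 5.87 in the PFC. The difference between the time points was not tested. The spread among libraries of a group was wide for Mbp and Mobp in both regions.

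Within a group, the 35 genes tended to move together from library to library. In 43 of the 71 libraries, at least 30 of the 35 genes were on the same side of their group means. All 35 were above in saline library 6 of the NAc and of the VTA at 1 day, saline library 2 of the PFC at 1 day and saline library 6 of the PFC at 28 days. None of the 35 was above in cocaine library 4 of the NAc, saline library 2 of the VTA and saline library 4 of the PFC at 1 day, and in cocaine library 2 of the PFC at 28 days. The range of the mean log2 level of the set within a group ran from 1.16-fold (saline NAc at 28 days) to 2.10-fold (saline PFC at 28 days). The source of this shared spread was not tested.

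**Figure D2:**
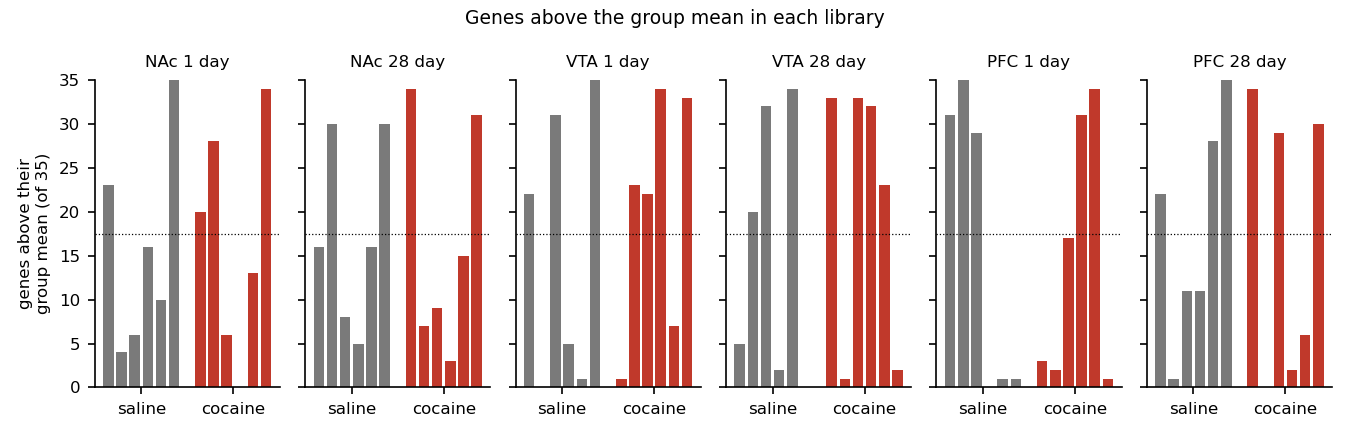
Number of the 35 genes above their group mean in each library, one bar per library in number order (gray saline, red cocaine; 6 per group, 5 for saline VTA at 28 days), with the dotted line at the middle of 35. Many bars stand near 0 or near 35, as in saline library 6 of the VTA at 1 day with 35 of 35, so that few libraries split the set evenly.

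Cocaine libraries were set against saline libraries of the same region and time point, to ask what differs at early and late abstinence. None of the 35 genes passed an adjusted p of 0.05 in any of the 6 comparisons. The share of all genes that passed was 0.0126% in the NAc, 0.0665% in the VTA and 0.00693% in the PFC at 1 day, and 0% in each region at 28 days, so few genes of any kind were called. At an unadjusted p under 0.05 the 35 genes gave 3, 4, 15, 12, 0 and 0 members in the NAc at 1 and 28 days, the VTA at 1 and 28 days and the PFC at 1 and 28 days, and all but 1 of these were lower after cocaine. DESeq2 on the count tables called 0 of the 35 in the NAc at 1 and 28 days, in the VTA at 28 days and in the PFC at 28 days.

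**Figure D3:**
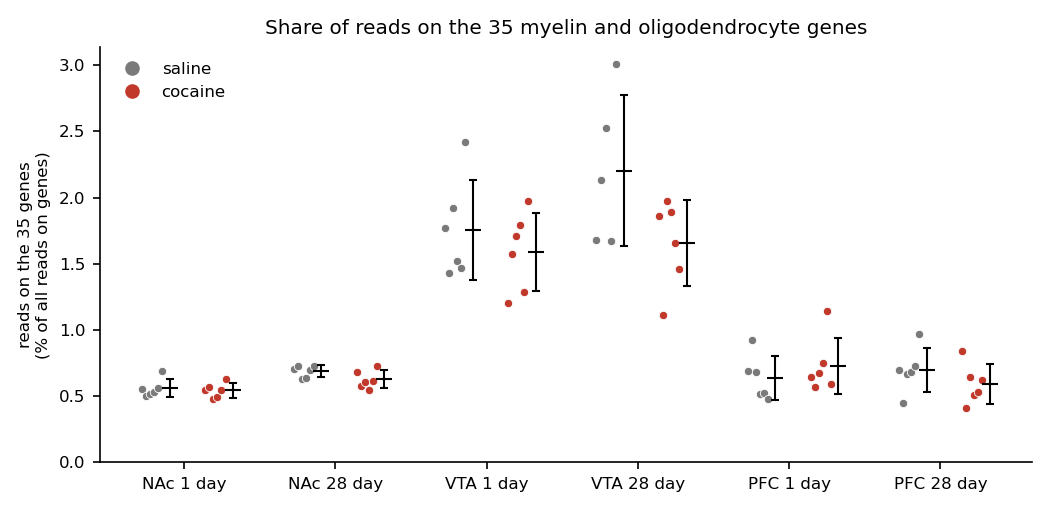
Percent of all reads on genes that fell on the 35 genes, one point per library, for saline (gray) and cocaine (red), with the mean and SD beside each group (n = 6, 5 for saline VTA at 28 days). VTA libraries lie between 1.12% and 3.01% and those of the NAc and PFC between 0.408% and 1.14%, and saline and cocaine points overlap in every table.

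The VTA at 1 day held the most members with a low p. 32 of the 35 genes had a log2 fold change below 0, against 41.1% of all genes tested, with a median of -0.24 against 0.03 for all genes. 15 of the 35 were lower at an unadjusted p under 0.05, against 4.57% of all genes, and 0 were higher, against 11.2% of all genes. Without saline library 6, in which all 35 genes were above their group mean, the median was -0.15. In that fit 9 genes were lower and 1 was higher at the same cutoff, and the share of all genes was not counted. In 4 of the 35 genes, Olig1, Opalin, Pllp and Qdpr, every cocaine library lay below every saline library, against 0.366% of all genes. On whole reads recovered from the RPKM steps, edgeR called 2 of the 35, Olig1 (adjusted p = 0.0387) and Opalin (adjusted p = 0.048), among 55 genes in all. Without cocaine library 6 limma called Opalin (adjusted p = 0.0423) among 65 genes in all, against 10 with all libraries. Without any other single library, limma called 0 of the 35. Nkx6-2, Pllp, Gjb1, Aspa, Gpr37 and Qdpr are named in this comparison after their values were seen.

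All 4 transcription factors were among the 15. Olig1 ranged from 38.3 to 52.6 RPKM after saline (median 44.7) and from 32.3 to 37.2 RPKM after cocaine (median 35.7). The groups did not overlap, with a log2 fold change of -0.37 (SE 0.07, limma adjusted p = 0.0711). The lack of overlap alone fixes the exact permutation p at 0.00216 (unadjusted), the smallest that 924 divisions can give. Olig2 ranged from 11.0 to 16.01 RPKM after saline (median 13.2) and from 8.39 to 11.1 after cocaine (median 10.1), a log2 fold change of -0.41 (SE 0.09, limma adjusted p = 0.0842). The groups of Olig2 overlapped in 1 cocaine library. Sox10 had a log2 fold change of -0.28 (SE 0.12, limma adjusted p = 0.291) and Nkx6-2 of -0.46 (SE 0.16, limma adjusted p = 0.219).

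Of the 15 structural proteins, 3 were lower at an unadjusted p under 0.05. Opalin had the fold change farthest from 0 in the set, from 30.8 to 48.5 RPKM after saline (median 36.2) to 15.05 to 27.7 RPKM after cocaine (median 24.8). The highest cocaine library was below the lowest saline library, with a log2 fold change of -0.70 (SE 0.14, limma adjusted p = 0.0766). Pllp, the tetraspan protein plasmolipin, ranged from 65.0 to 102 RPKM after saline and from 50.4 to 64.1 after cocaine, a log2 fold change of -0.41 (limma adjusted p = 0.112). The other of the 3 was Gjb1, the gap junction protein connexin 32, at -0.31 (limma adjusted p = 0.289). The most abundant structural proteins had smaller fold changes. Mbp ranged from 1051 to 1848 RPKM after saline (median 1283) and from 836 to 1609 after cocaine (median 1254), and its log2 fold change of -0.16 (SE 0.18) had a limma adjusted p of 0.731. Mog, Mag and Cnp had log2 fold changes of -0.18, -0.27 and -0.24, with limma adjusted p of 0.525, 0.396 and 0.391. The share of reads on the whole set had a median of 1.64% after saline and 1.64% after cocaine, with means of 1.76% and 1.59%. The mean log2 level of the set differed by -0.22, cocaine minus saline.

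Among the lipid enzymes, Aspa (-0.33, limma adjusted p = 0.254), which frees acetate from N-acetylaspartate, and Ugt8a (-0.31, limma adjusted p = 0.31), which makes galactosylceramide, were lower at an unadjusted p under 0.05. 3 of the 4 receptors and surface proteins were, with Gpr37 at -0.39 (limma adjusted p = 0.0966). Of the 8 carriers and enzymes, 3 were lower, among them Qdpr, which recycles tetrahydrobiopterin. Qdpr ranged from 267 to 344 RPKM after saline and from 200 to 262 after cocaine, a log2 fold change of -0.29 (limma adjusted p = 0.146). Apod, Gsn and Cdk18 were the 3 members with a fold change above 0, at 0.33, 0.14 and 0.17, and none had an unadjusted p under 0.05.

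Other marker lists held genes at an unadjusted p under 0.05 in the same tissue. Of all genes tested, 4.57% were lower and 11.2% higher by that rule. In these lists 1 of the 12 microglia markers had a limma adjusted p under 0.05, and 0 of the fibroblast and dopamine neuron markers did. The summed level of the 8 fibroblast markers ran from 19.3 to 116 RPKM after saline and from 56.9 to 501 after cocaine, and 7 of the 8 were higher at an unadjusted p under 0.05. That of the 12 microglia markers ran from 257 to 373 RPKM after saline and from 174 to 263 after cocaine, with 10 of 12 lower. That of the midbrain dopamine neuron markers ran from 1125 to 2591 RPKM after saline and from 681 to 1614 after cocaine, with 5 of 9 tested lower. Of the endothelial markers 4 of 10 were higher (median log2 fold change 0.38), of the cortical excitatory neuron markers 3 of 6 tested were higher (0.61), of the choroid plexus markers 1 of 6 tested was higher (0.54) and of the astrocyte markers 3 of 12 were lower (-0.14). The general neuron markers gave 1 of 10 lower, and the striatal medium spiny neuron markers gave 1 of 10 lower and 1 higher. None of the fibroblast, microglia and dopamine neuron markers was at 0 in all libraries. The part of these shifts in the values of the 35 genes was not tested. Oligodendrocyte precursor markers gave 1 of 11 lower and 0 higher, with a median log2 fold change of 0.01, and 28 other mature oligodendrocyte genes outside the set gave 9 lower and 0 higher, with a median of -0.19. Cholesterol synthesis genes gave 0 of 21 in either direction.

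**Figure D4:**
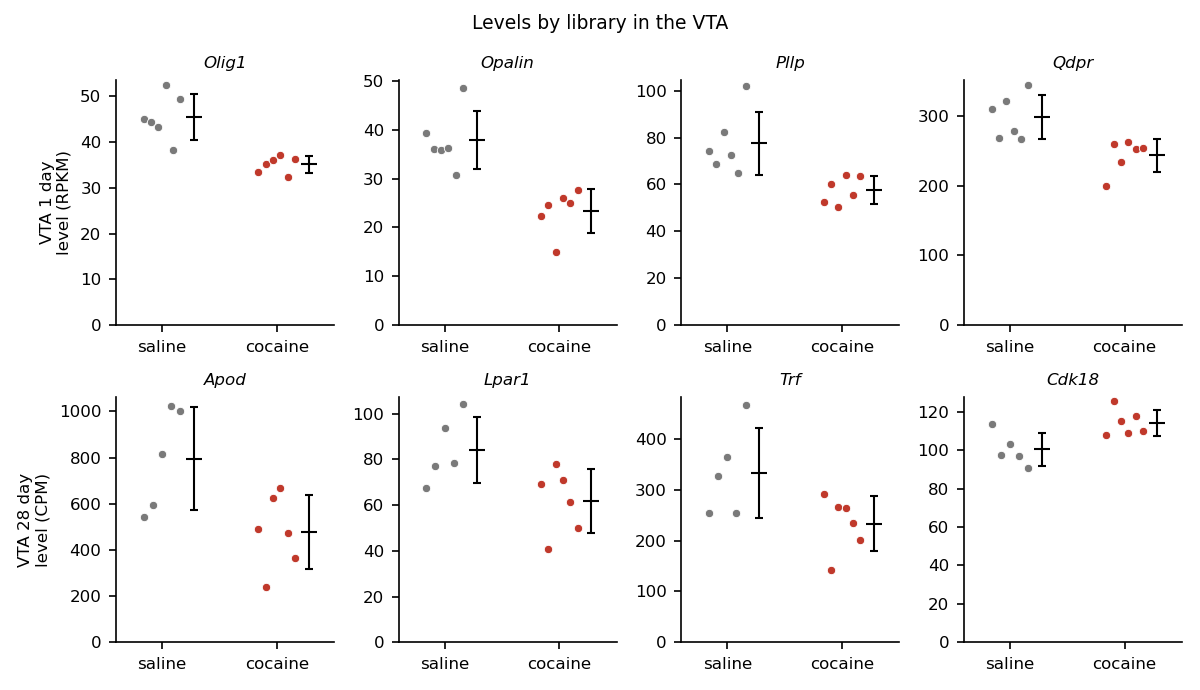
Levels by library of 4 genes in the VTA at 1 day (upper row, RPKM) and of 4 genes in the VTA at 28 days (lower row, CPM), with the mean and SD beside each group (6 libraries, 5 for saline at 28 days). In the upper row no cocaine point reaches a saline point, while in the lower row the groups overlap in all 4 genes and Cdk18 is the one with the higher cocaine mean.

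In the VTA at 28 days, 33 of the 35 genes had a log2 fold change below 0, against 56.9% of all genes, with a median of -0.36 against -0.03. 11 were lower at an unadjusted p under 0.05, against 6.39% of all genes, and 1 was higher, against 5.08%. The smallest adjusted p of the set was 0.394 (edgeR). These counts rest on single libraries: without saline library 5, 2 of the 35 had an unadjusted p under 0.05, and without saline library 4, 25 did. The share of all genes at this cutoff was not counted in these fits, so a shift of genes in general cannot be told apart. Saline library 5 had the highest share of reads on the set, 3.01%, and saline library 4 had the highest level of fibroblast markers.

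Apod had the smallest p. Its saline libraries stood at 545, 593, 816, 1022 and 1003 CPM and its cocaine libraries between 241 and 669 CPM (median 483). 4 of the 6 cocaine libraries were below all saline libraries, with a log2 fold change of -0.74 (SE 0.25, edgeR adjusted p = 0.394). Lpar1, a receptor for lysophosphatidic acid, was at 67.5, 77.3, 93.7, 78.6 and 104 CPM after saline and between 40.7 and 77.9 after cocaine (log2 fold change -0.45, edgeR adjusted p = 0.398). Trf was at 254, 328, 365, 253 and 465 CPM after saline and between 142 and 291 after cocaine (-0.51, edgeR adjusted p = 0.402). Both genes overlapped between groups.

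Mbp, Mog and Mag were lower by similar amounts, with log2 fold changes of -0.45, -0.46 and -0.43 and edgeR adjusted p of 0.423, 0.417 and 0.435. Cnp, Opalin, Ugt8a and Sox10 had log2 fold changes of -0.33, -0.29, -0.26 and -0.24, none with an unadjusted p under 0.05. Olig2 was at 0.02 (SE 0.13). Cdk18 was the 1 member higher at an unadjusted p under 0.05: its saline libraries stood at 114, 97.7, 103, 97.1 and 90.7 CPM and its cocaine libraries between 108 and 126 (median 113), a log2 fold change of 0.18 (SE 0.07, edgeR adjusted p = 0.398). The cocaine values were above the saline mean in all 6 libraries and overlapped saline library 1. Beside this, 4 of 12 microglia and 4 of 10 endothelial markers were lower at an unadjusted p under 0.05, against 6.39% of all genes. The summed fibroblast markers ran from 74.5 to 1522 CPM after saline and from 59.7 to 669 after cocaine. Of the 28 other mature oligodendrocyte genes 9 were lower and 0 higher. The part of these in the values of the 35 genes was not tested.

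The VTA tables of the 2 time points differ in unit and were normalized apart. The difference between them was not tested, nor was it tested on the reads recovered for 1 day. Side by side, as log2 fold changes of cocaine against saline, the median of the 35 genes was -0.24 at 1 day and -0.36 at 28 days. Mbp, Mog, Mag, Cnp, Sox10 and Ugt8a, given above for each time, were below 0 at both. Apod was at 0.33 and -0.74, Olig1 at -0.37 and -0.13, Olig2 at -0.41 and 0.02, and Opalin at -0.70 and -0.29. Without cocaine library 6, Apod at 1 day was at 0.16.

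**Figure D5:**
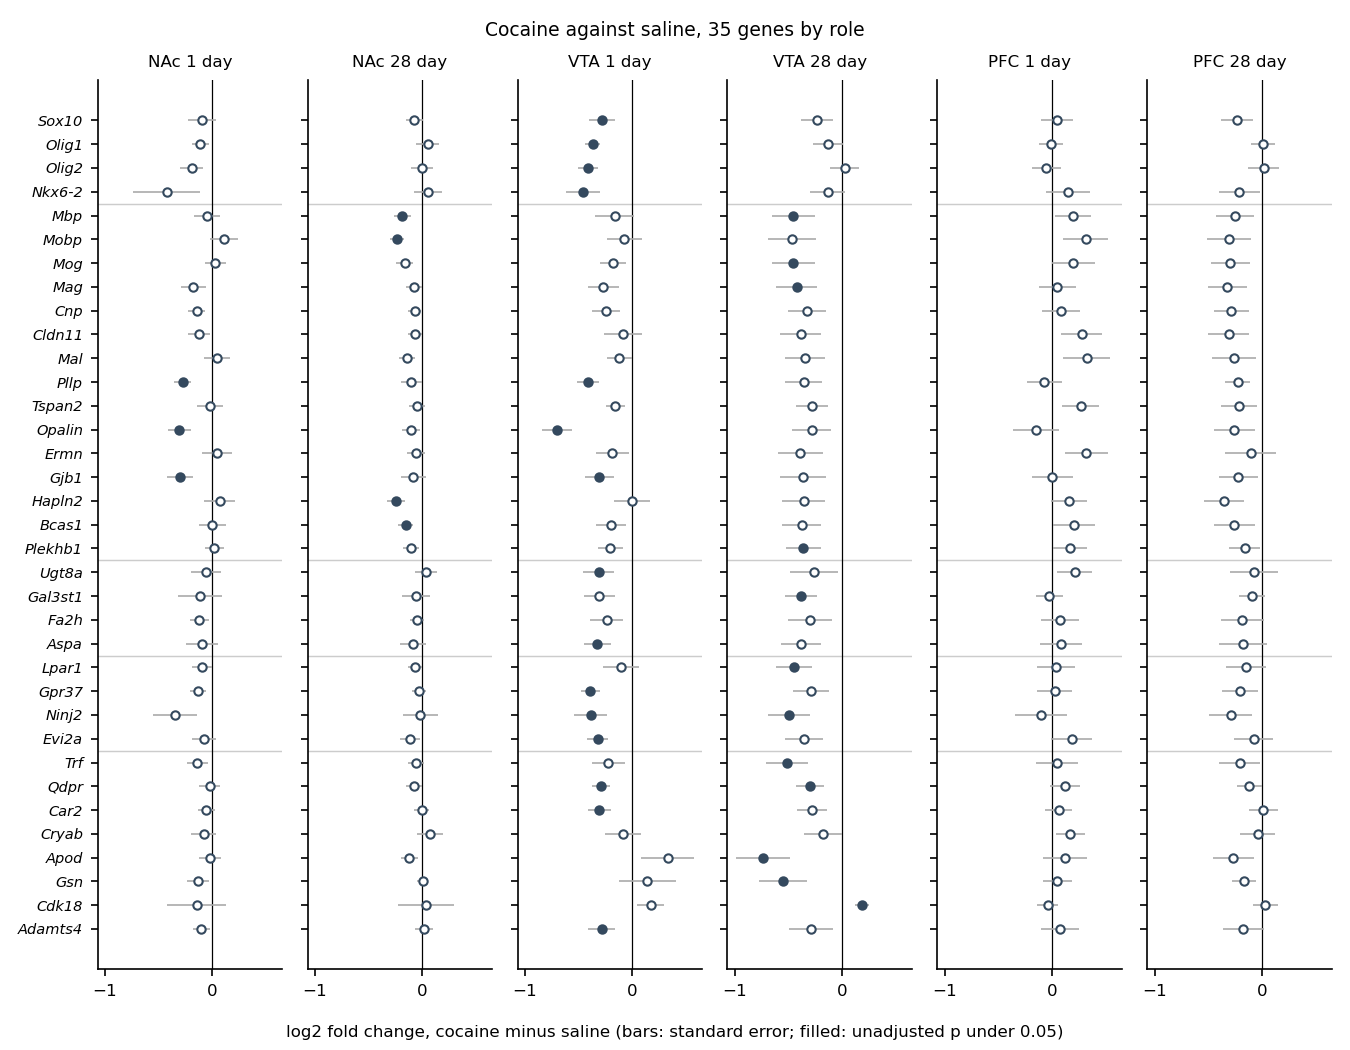
Log2 fold change of cocaine against saline for the 35 genes in each table, in the order transcription factors, structural proteins, lipid enzymes, receptors and surface proteins, and other genes, with gray lines between the roles, standard errors as bars and filled points for an unadjusted p under 0.05. Points lie mostly left of 0 in the VTA, with 32 of 35 at 1 day and 33 of 35 at 28 days, and mostly right of 0 in the PFC at 1 day, with 7 of 35 below 0.

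In the NAc at 1 day, 29 of the 35 genes had a log2 fold change below 0, against 50.5% of all genes, with a median of -0.10 against 0.00. 3 were lower at an unadjusted p under 0.05, against 1.25% of all genes, and 0 were higher, against 2.76%. Without saline library 6, in which all 35 genes were above their group mean, the median was -0.03. In that fit 22 of the 35 were below 0 and 2 were lower at an unadjusted p under 0.05. At this cutoff the share of all genes was not counted there. Pllp ranged from 44.5 to 60.6 CPM after saline (median 47.9) and from 37.2 to 46.6 CPM after cocaine (median 41.1), a log2 fold change of -0.28 (SE 0.08, edgeR adjusted p = 0.95). 5 of the 6 cocaine libraries were below all saline libraries. Opalin ranged from 27.7 to 35.2 CPM after saline and from 19.6 to 31.3 after cocaine (-0.31, SE 0.10), and Gjb1 from 8.75 to 13.2 and from 6.62 to 9.98 (-0.30, SE 0.12). Both had an edgeR adjusted p of 1.00. Mobp (0.11), Hapln2 (0.07) and Mal (0.04) had the smallest p among the members above 0, and Mbp, Mog and Apod stood at -0.05, 0.03 and -0.03.

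In the NAc at 28 days, 28 of the 35 genes were below 0, against 48% of all genes, with a median of -0.07 against 0.00. 4 were lower at an unadjusted p under 0.05, against 3.42% of all genes, and 0 were higher, against 3.34%. All 4, Mobp, Hapln2, Mbp and Bcas1, belong to the 15 structural proteins, and Bcas1 is named after its values were seen. Mobp ranged from 876 to 1010 CPM after saline (median 917) and from 702 to 911 CPM after cocaine (median 767), a log2 fold change of -0.24 (SE 0.07, edgeR adjusted p = 0.592). 5 of the 6 cocaine libraries were below all saline libraries. Mbp ranged from 2583 to 3110 CPM after saline and from 2121 to 3044 after cocaine, a log2 fold change of -0.19 (SE 0.08, edgeR adjusted p = 0.692). The 4 transcription factors had values between -0.08 and 0.05.

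Whether the effect of cocaine differed between the time points was tested in the NAc, where both tables hold counts. A treatment by time interaction was called for 0 of the 35 genes, against 0.0181% of all genes (edgeR, adjusted p under 0.05). At an unadjusted p under 0.05 it held 1 member, against 5.27% of all genes, and DESeq2 called 0. That gene was Mobp, at 0.11 at 1 day and -0.24 at 28 days, a difference of -0.34 (SE 0.15, edgeR adjusted p = 0.932).

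The PFC at 1 day was the 1 table in which most members were above 0. 7 of the 35 had a log2 fold change below 0, against 54.6% of all genes, and the median was 0.08 against -0.01. 0 members had an unadjusted p under 0.05 in either direction, against 2.11% of all genes lower and 1.67% higher. Ermn, an actin-binding protein of myelin, ranged from 16.6 to 32.4 RPKM after saline (median 22.2) and from 20.9 to 52.2 after cocaine (median 26.5), a log2 fold change of 0.32 (SE 0.20, limma adjusted p = 0.913). Tspan2 and Mobp were at 0.26 and 0.31 with the same adjusted p. Opalin (-0.15), Pllp (-0.07) and Cdk18 (-0.04) had the smallest p among those below 0. Cocaine library 5 and saline library 2 held the highest shares of reads on the set, 1.14% and 0.928%, and without cocaine library 5 the median was -0.02, with 21 of the 35 genes below 0.

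In the PFC at 28 days, 31 of the 35 genes were below 0, against 49.9% of all genes, with a median of -0.21 against 0.00. 0 had an unadjusted p under 0.05, against 2.97% of all genes lower and 2.69% higher. Pllp ranged from 43.3 to 74.6 CPM after saline (median 59.5) and from 41.4 to 64.2 after cocaine (median 48.6), a log2 fold change of -0.23 (SE 0.12, edgeR adjusted p = 0.842). Hapln2 was at -0.36 (SE 0.18), Cnp at -0.28 (SE 0.16) and Mag at -0.32 (SE 0.18), with the same adjusted p. Cdk18, Olig2 and Car2 stood above 0, at 0.03, 0.01 and 0.01. Without saline library 4, in which the medium spiny neuron markers were high, the median was -0.23 and 34 of the 35 genes were below 0. Without saline library 6, which had the highest level of the set, the median was -0.08 with 26 below 0, and without cocaine library 2, which had the lowest, it was -0.12 with 28 below 0. Single libraries moved the count: without cocaine library 1, 13 members had an unadjusted p under 0.05, and without saline library 2, 10 did. The share of all genes at this cutoff was not counted in these fits.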

How the data were processed

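Libraries were grouped by their labels. The columns of the 28-day tables name a group but not a single labelled sample, so their numbers only name a library. Another 30 per-library columns match no sample here and were left out. The authors aligned reads to mm9 with STAR 2.4.1d and deposited raw counts per gene for 4 tables and RPKM for VTA and PFC at 1 day. The authors' own fold changes and p-values, in the same tables, were not used. The strand setting of the counting was not given in the sources used here.

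Counts were tested with edgeR 4.0.16 in R 4.3.3 (filterByExpr with count 10 and total 15, TMM factors, glmQLFTest), and standard errors were taken from its F statistic. RPKM was tested with limma 3.58.1 with a trend, after adding 0.1 and taking log2, for genes averaging 0.5 RPKM or more. The added 0.1 makes the fold change of low genes too small. CPM use TMM-scaled library sizes. Adjusted p-values are by Benjamini-Hochberg across every gene tested. The exact permutation test was two-sided and its p is given unadjusted. Gene lengths came from the RPKM steps.

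RPKM values move in steps of 1 read. For 100.0% of the 23806 genes with reads in the VTA and of the 23353 in the PFC, values came out as whole reads within 0.01 reads. A gene with reads in only 1 library passes this check whatever its value, and one with reads in few libraries passes easily. The check says little for such genes, and their recovered reads may be too low. edgeR on these called 55 genes in the VTA and 1 in the PFC. Each test was tried on simulated tables with known changes, in which changed genes were drawn from all genes and each gene varied independently. In these, 1.5-fold changes were recovered for 35.2% of changed genes in the VTA at 28 days (16796 genes in all) and 81.4% in the PFC at 1 day (14351 genes). Recovery was not measured for the 35 genes.

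Members and gene lists were chosen with earlier results of these data known. Named were the 3 members of smallest p in each direction of a comparison, 9 further members (Mbp, Mog, Mag, Cnp, Sox10, Olig2, Opalin, Ugt8a and Apod) and the 3 largest and 3 smallest differences of a region contrast. The alternatives were DESeq2 1.42.0, its size factors in edgeR, no filter, a pseudocount of 1, recovered reads, a looser threshold of 0.25, a block for the replicate number, cocaine libraries for the regions and leaving out each library. A fit of limma without a trend was added after seeing the data.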

Additional observations from a re-analysis of the deposited data

Results flagged for a closer look

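Dixon's test at the 95% level was run on 170 groups of library values, those of the named members and of the mean of the set. In 12 (7.06%) a library stood apart from the rest of its group, all of them groups of a single member. Chance alone flags about 1 in 20 groups, and genes of the same library are not independent.

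Cocaine library 5 of the PFC at 1 day stood apart for 6 genes, all high: Mobp at 677 RPKM (next library 399), Mog at 116 (65.8), Cnp at 207 (139), Pllp at 43.6 (29.4), Ermn at 52.2 (31.1) and Apod at 153 (87.7). In the PFC at 28 days, cocaine library 1 was high for Sox10 at 69.7 CPM (next 48.7) and for Opalin at 37.7 CPM (next 24.0), and saline library 6 was high for Apod at 233 CPM (next 136).

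Hapln2 stood at 13.8 CPM in saline library 6 of the NAc at 1 day (next 11.8). Gsn was at 98.2 RPKM in cocaine library 6 of the VTA at 1 day (next 52.8). Olig2 was at 60.9 CPM in saline library 5 of the VTA at 28 days (next 43.2). The causes were not tested.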

How the results depend on the processing

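The call of 0 of 35 members held under every alternative run in the NAc at both times, the VTA at 28 days and the PFC at both times. In the VTA at 1 day it was 9 at an adjusted p under 0.25 (1309 of all genes passed), 2 on recovered reads and 2 with the replicate block (Olig1 adjusted p = 0.0322 and Opalin 0.047, limma), 0 with limma without a trend, and 0 to 1 without single libraries. The replicate block left 5 members at an unadjusted p under 0.05 in the VTA at 28 days and 12 in the PFC at 28 days, where DESeq2 gave 1. The numbers were not taken to pair the libraries, since in no comparison was every same-numbered correlation over 0.1: 3 of 6 were in the NAc at 1 day, 4 of 6 in the VTA at 1 day, 2 of 6 in the NAc and 3 of 5 in the VTA at 28 days, and 0 of 6 in the PFC at either time. Between regions of saline mice, 3 of 5 (NAc and VTA), 1 of 5 (VTA and PFC) and 3 of 6 (NAc and PFC) were, and 4 of 5, 2 of 5 and 4 of 6 libraries correlated best with their own number. Leaving out single libraries, members at an unadjusted p under 0.05 numbered 2 to 5 (NAc 1 day, 5 without cocaine library 6 or saline library 2), 2 to 8 (NAc 28 days, 8 without cocaine library 1 and 2 without cocaine library 2, 3, 4 or 5 or saline library 2, 5 or 6), 10 to 17 (VTA 1 day), 2 to 25 (VTA 28 days), 0 to 3 (PFC 1 day) and 0 to 13 (PFC 28 days). In the VTA at 28 days the number was 24 without saline library 1, 5 without saline library 3, cocaine library 2 or cocaine library 5, and 6 without cocaine library 6. The share of all genes at an unadjusted p under 0.05 was not counted in any of the alternative fits. DESeq2 called more genes of all kinds than edgeR, 21 against 2 (NAc 1 day), 20 against 0 (NAc 28 days), 83 against 0 (VTA 28 days), 2 against 0 (PFC 28 days) and 12 against 3 (interaction). In the VTA at 1 day, limma called 10 genes, 28 without a trend, 60 with the replicate block and 7 with no filter, and edgeR on recovered reads 55. Members called between NAc and PFC were 1 with no filter (Cryab adjusted p = 0.0502, edgeR) and 1 to 2 without single libraries, and all 35 stayed higher in VTA throughout. In cocaine libraries Cryab differed between NAc and PFC by -0.20 (edgeR adjusted p = 0.398) and the named gene that reversed was Gsn, to 0.16, while the members' median turned from -0.06 to 0.06. The causes were not tested. In simulated data, 1.5-fold changes were recovered for 35.2% of changed genes in the VTA at 28 days and 81.4% in the PFC at 1 day. Smaller changes were not simulated. The changed genes were drawn from all genes and varied independently, so these rates are not those of the 35 genes, which tended to move together. The median SE of the 35 genes was 0.177 in the PFC at 1 day and 0.180 in the VTA at 28 days.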
